A study of Mus musculus with 2 samples.

Results

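Lysosomes are acidic organelles in which proteins, lipids and glycans taken up by the cell, or delivered from its own cytoplasm by autophagy, are broken down. Hydrolases do the cutting, a proton pump called the V-ATPase acidifies the lumen, membrane glycoproteins and lipid transporters line and serve the organelle, and autophagy adaptors carry cargo to it. The retinal pigment epithelium (RPE) relies on this pathway more than most tissues, because it engulfs and digests the shed tips of photoreceptor outer segments throughout life. Loss of Abca4, the retinoid flippase of photoreceptors and RPE, leads to the build-up of bisretinoid lipofuscin in RPE lysosomes and is the genetic cause of the common recessive form of Stargardt disease. Macrophages and microglia are the other professional phagocytes of the eye and are rich in cathepsins.

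The 32 genes described here were chosen by symbol, as 32 of the 32286 features of the count matrices, and fall into 3 groups. They were chosen with earlier results of these data known, so shares set beside those of all genes are descriptions and test nothing. The first holds 17 hydrolases and luminal proteins: the cathepsins Ctsa, Ctsb, Ctsd, Ctsh, Ctsl and Ctsz, the glycosidases Hexa, Gla, Glb1 and Gusb, the lipid handlers Npc2, Lipa, Asah1 and Psap, the growth factor precursor Grn, the peptidase Tpp1 and the thioesterase Ppt1. The second holds 9 membrane and pump genes: Lamp1, Lamp2, Cd63, the cholesterol transporter Npc1, the calcium channel Mcoln1 and the V-ATPase subunits Atp6v0c, Atp6v0d1, Atp6v1a and Atp6v1b2. The third holds 6 autophagy genes and regulators: the LC3 and GABARAP family members Map1lc3a, Map1lc3b and Gabarapl1, the cargo receptor Sqstm1, and the transcription factors Tfeb and Tfe3. All 32 had counts in both libraries, the lowest being Gusb with 685 and 910 unique molecular identifiers (UMIs, each standing for 1 captured transcript).

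Both libraries are droplet single-cell RNA libraries of the optic cup of Abca4KO mice, and each treatment has 1 library. One is labelled AAV2.8-GFP, a viral vector carrying a green fluorescent protein control, and the other AAV2.8-Sponge.mir181, a vector whose transcript is meant to bind and occupy the microRNAs miR-181a and miR-181b. The study design describes subretinal injection at 2 months, with the sponge in one eye and the control vector in the opposite eye, and collection 4 months later. By the sample labels the mice were 4 months old, which differs from that timeline. The sources used here give neither the number of mice nor the promoter of the vectors. With 1 library per treatment no test between treatments was possible. Intervals of levels, shares and ratios of single genes are 95% intervals for counting error only and do not cover variation between eyes or dissociations. The interval beside a median over genes gives the median of the genes' lower bounds and that of their upper bounds. It is not a 95% interval of the median.

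The GFP-labelled library held 39285 cells after filtering, with a median of 2415 UMIs, and the sponge-labelled library held 23200 cells with a median of 2981 UMIs. The eGFP transcript was counted mostly in the sponge-labelled library, and the sources used here do not say whether the sponge vector carries it. The GFP-labelled library had 12 eGFP UMIs in 10 cells, and the sponge-labelled library had 5484 in 702 cells. Levels are given as CPM, the UMIs of a gene scaled by the UMI total of the class in that library. In RPE cells eGFP stood at 1.23 and 684 CPM respectively, so directions below are given as between the GFP-labelled library and the sponge-labelled library. Whether the labels are exchanged was not tested, and if they were, every ratio below would change sign. The libraries shared 287 cell barcodes among the cells kept. Cells were grouped by clustering without the 32 genes or other pathway genes and named from marker genes, which gave 13 classes. The clusters left without a name held 40.2% of the cells of the GFP-labelled library and 38.2% of the other. The classes differed in depth between the libraries in both directions: the median UMIs of an RPE cell were 0.527 times as high in the sponge-labelled library, and those of an ocular surface epithelium cell 4.08 times as high.

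The sponge is meant to bind miR-181a and miR-181b, so their mature sequences are shown with the seed, bases 2 to 8, in capitals (RefSeq, GRCm38.p6). Both microRNAs share the seed and differ beyond it.
mmu-miR-181a-5p: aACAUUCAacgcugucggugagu
mmu-miR-181b-5p: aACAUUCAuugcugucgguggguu
One kind of site that miR-181 could pair with is TGAATGT, the complement of the seed, in the 3′ untranslated region. Only this match was searched for, in the longest annotated 3′ untranslated region of each gene. That match was found in 6 of the 32 genes (18.8%), against 17.0% of 21166 genes with an annotated 3′ untranslated region and 14.0% of the 93 other pathway genes examined. The share among the 32 genes was therefore close to that of all genes. The 6 sites are printed with the match in capitals (GRCm38, gene strand), since these are the members in which the search found it.
Psap, chr10:60302281-60302287, 8-base match with a following A: ggggaaacttgTGAATGTaacttgcctgt
Atp6v1a, chr16:44087200-44087206, 8-base match with a following A: atctgaagtggTGAATGTagtgcatatga
Npc2, chr12:84755294-84755300: ttattcagctgTGAATGTgagctgtaagt
Tpp1, chr7:105745001-105745007: gaattaagcaaTGAATGTtagtttccctt
Ppt1, chr4:122844440-122844446: cagcttcttctTGAATGTtaatgtccaag
Sqstm1, chr11:50200622-50200628: gaggagagtttTGAATGTgcatatgctga
A match of letters is a description and does not show that a site is used.

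Many lysosomal genes are known targets of TFEB and TFE3, which bind a motif (the CLEAR element) built on the E-box CACGTG, often as TCACGTGA. Promoter windows of 250 bases before to 50 bases after the start were available for 26 of the 32 genes. CACGTG, which reads the same on both strands, was present in 9 of these 26 (34.6%) against 8.09% of 27025 genes with a window. TCACGTGA, which contains CACGTG, was present in 6 of 26 (23.1%: Atp6v0d1, Atp6v1a, Ctsa, Ctsd, Gla and Mcoln1) against 1.12%. Ctsl, Glb1 and Lamp1 held the shorter motif only. By group, CACGTG was found in 5 of 14 hydrolase genes with a window, 4 of 7 membrane and pump genes and 0 of 5 autophagy genes. The windows of Ctsd and Lamp1 are printed with the motifs in capitals: Ctsd because its level separated the libraries most in RPE, and Lamp1 because it holds 4 copies.
Ctsd, chr7:142387778-142388077, minus strand: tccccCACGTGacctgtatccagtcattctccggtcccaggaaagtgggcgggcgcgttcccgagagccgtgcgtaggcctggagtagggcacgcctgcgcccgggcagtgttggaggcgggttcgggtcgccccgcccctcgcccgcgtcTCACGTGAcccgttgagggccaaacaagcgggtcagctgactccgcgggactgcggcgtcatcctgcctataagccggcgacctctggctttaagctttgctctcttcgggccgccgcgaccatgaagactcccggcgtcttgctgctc
Lamp1, chr8:13158911-13159210, plus strand: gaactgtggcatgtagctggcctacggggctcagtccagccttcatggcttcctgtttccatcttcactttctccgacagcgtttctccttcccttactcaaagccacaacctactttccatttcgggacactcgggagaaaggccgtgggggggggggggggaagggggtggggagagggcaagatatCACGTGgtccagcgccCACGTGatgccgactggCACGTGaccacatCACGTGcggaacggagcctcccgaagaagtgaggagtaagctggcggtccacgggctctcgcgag
The cores of Ctsd start 245 and 98 bases before the transcription start on which its window is set. That start lies inside the annotated gene, whose coordinates are given below.

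The 32 genes were most abundant in phagocytes. Averaged over both libraries, 20 of the 32 had their highest level in microglia and macrophages, including 14 of the 17 hydrolases and luminal genes, 4 of the 9 membrane and pump genes and 2 of the 6 autophagy genes. RPE was the highest class for 4: the peptidase Tpp1 (mean 131 CPM), the V-ATPase subunits Atp6v0c (1048 CPM) and Atp6v1a (231 CPM), and Map1lc3a (289 CPM). For Map1lc3a the highest class differed between the libraries, with fibroblasts at 363 CPM and RPE at 358 CPM in the sponge-labelled library. In 16 of the 32 the highest class stood at least 3-fold over the median class, and in the other 16 it did not. The same counts over all genes are not given here, so these counts do not show whether the 32 differ from other genes.

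Among the hydrolases, Grn reached a mean of 299 CPM in macrophages, 14.2-fold over its median class, and Ctsz, a cathepsin that trims the carboxyl end of proteins, reached 590 CPM, 13.8-fold over. Ctsd, the aspartic protease that RPE uses to degrade rhodopsin, was high in 2 classes, with 1353 CPM in macrophages and 1304 CPM in RPE, against 75.9 CPM in bipolar cells. Ctsh, an aminopeptidase, reached 215 CPM in macrophages (10.3-fold), Gusb 46.4 CPM (8.49-fold), Ctsa 196 CPM (7.89-fold) and Hexa 179 CPM (7.58-fold). The cysteine protease Ctsb stood at 1122 CPM in macrophages, with melanocytes next at 445 CPM. Lipa, the acid lipase, was nearly as high in endothelial cells (121 CPM) as in macrophages (139 CPM). Npc2, the cholesterol carrier of the lumen, stood at 563 CPM in macrophages and 473 CPM in RPE. Psap, the precursor of the saposins that present sphingolipids to hydrolases, stood at 817 and 789 CPM in the same classes, and which of them was higher differed between the libraries.

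Several genes peaked outside the phagocytes. Cd63, a tetraspanin of late endosomes and melanosomes, was highest in melanocytes at 1628 CPM, with RPE at 879 CPM. Ctsl was highest in ocular surface epithelium at 899.5 CPM. Gla, the galactosidase whose loss causes Fabry disease, was highest in a Müller glia cluster, described below as cluster 9, at 74.3 CPM and 5.23-fold over its median class. Sqstm1 was also highest there, at 412 CPM. Gabarapl1 was highest in melanocytes (196 CPM), Map1lc3b in pericytes and smooth muscle (265 CPM), Lamp2 in fibroblasts (273 CPM) and Atp6v1b2 in cones (186 CPM). Lamp1 reached 422 CPM and Tfeb 40.6 CPM in macrophages, 3.74-fold and 4.16-fold over their median classes.

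**Figure D1:**
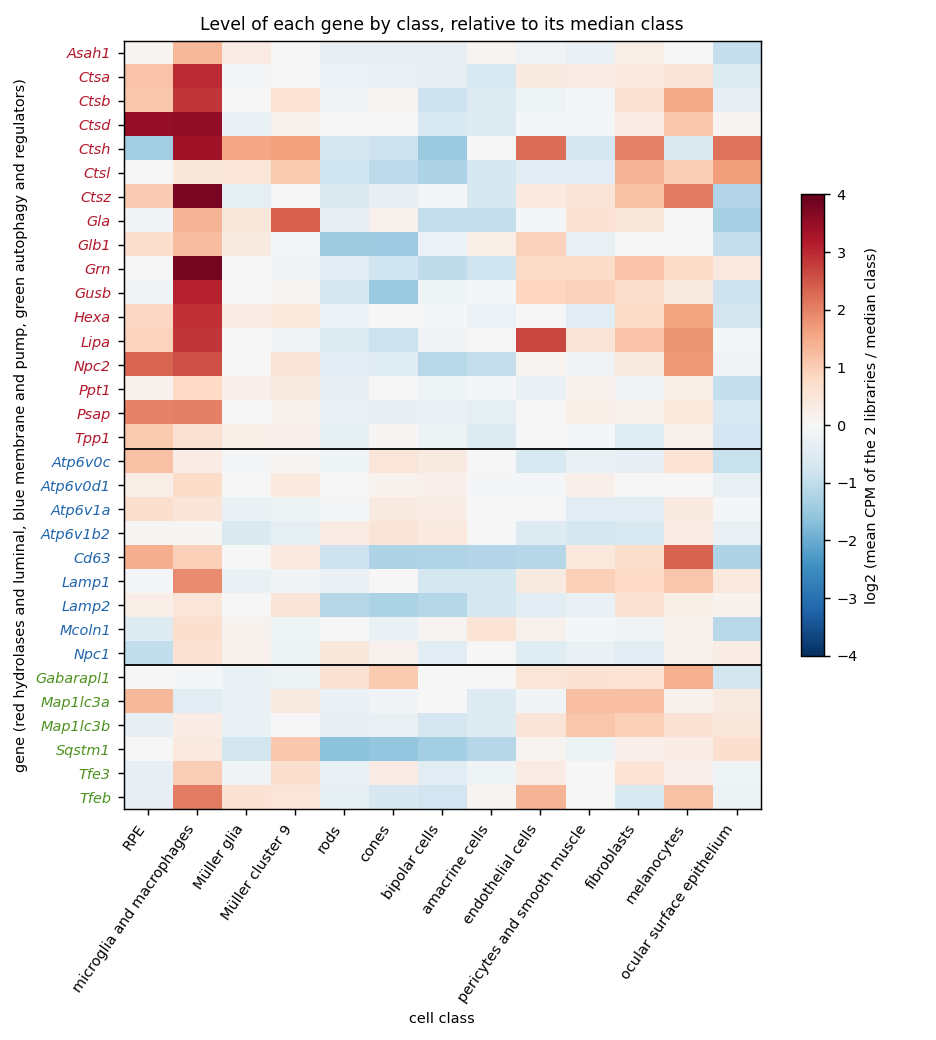
Level of each of the 32 genes (rows, ordered by group) in each of the 13 cell classes (columns), as the log2 of the mean CPM of both libraries over the gene's median class. Macrophages hold the highest level for 20 of the 32 genes and RPE for 4.

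In RPE most hydrolases were higher in the sponge-labelled library, Ctsd above all, while the autophagy genes were divided. The class held 995 cells of the GFP-labelled library and 476 of the sponge-labelled library. Although the median depth per RPE cell was lower in the sponge-labelled library, the mean was 1.97 times as high, with 6910426 UMIs in the class against 7314694. CPM of the summed UMIs therefore gives deeper cells more weight. The 32 genes together took 5476 CPM in the GFP-labelled library and 8769 CPM in the other. The log2 ratio of sponge over GFP, computed with 0.5 added to each count, had a median of 0.25 over the 32 genes (interval 0.14 to 0.49), against −0.15 over all genes measured in RPE, where a gene counts as measured with at least 50 UMIs over both libraries. The ratio was above 0 for 23 of the 32, against 39.6% of all genes measured. At least 1.5-fold higher in the sponge-labelled library were 10 genes, against 9.77% of all, and 1 was at least 1.5-fold lower, against 25.9% of all. The median was 0.44 for the 17 hydrolases and luminal genes (13 above 0), 0.22 for the 9 membrane and pump genes (7 above 0) and 0.06 for the 6 autophagy genes (3 above 0). Another scaling, by the median of ratios, sets the all-gene median of −0.15 to 0 and so raises every RPE ratio by the same amount; the members just below 0 then lie closer to it or above it.

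Ctsd (chr7:142375911-142388038, minus strand, GRCm38) added more to the difference in the summed level than any other member. It stood at 682 CPM (663 to 701) in the GFP-labelled library and 1925 CPM (1893 to 1958) in the sponge-labelled library, a log2 ratio of 1.5 (1.45 to 1.54). The 2 counting intervals do not overlap. Ctsz stood at 58.9 and 114 CPM, a log2 ratio of 0.96 (0.79 to 1.13). Npc2 stood at 349 and 598 CPM (0.78, 0.70 to 0.85), and Psap at 605 and 973 CPM (0.69, 0.63 to 0.74). These 4 luminal genes were all higher in the sponge-labelled library, and 2 of them, Npc2 and Psap, carry a miR-181 seed match. The glycosidases Glb1 (13.4 and 23.2 CPM) and Hexa (32.7 and 50.8 CPM) and the precursor Grn (15.7 and 26.5 CPM) were also at least 1.5-fold higher. Asah1, the acid ceramidase, stood at 39 and 55 CPM, Ctsb at 278 and 377 CPM, and Ctsl at 255 and 309 CPM.

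Not all hydrolases followed. Ctsh was the 1 member at least 1.5-fold lower in the sponge-labelled library, at 10.3 and 5.64 CPM (log2 ratio −0.85, −1.46 to −0.28). Tpp1 and Ppt1, whose loss in humans causes neuronal ceroid lipofuscinosis, stood slightly lower. Tpp1 went from 139 CPM in the GFP-labelled library to 123 CPM in the other (−0.18, −0.31 to −0.04), and Ppt1 from 85.6 to 73.4 CPM (−0.22, −0.39 to −0.05). Both also carry a seed match. With each cell weighted equally, the log2 ratios of Ctsh, Npc2 and Psap were −0.07, 0.44 and 0.56, all under 1.5-fold. Ctsa (51 and 58.5 CPM), Lipa (34.2 and 36.6), Gla (13.4 and 13.2) and Gusb (4.92 and 4.92) had intervals that reached 0.

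Among the membrane and pump genes of RPE, Cd63 stood at 661 and 1097 CPM (log2 ratio 0.73, 0.68 to 0.78). Atp6v0c, which forms the proton-carrying ring of the V-ATPase, stood at 834 and 1262 CPM (0.60, 0.55 to 0.64). The other 3 pump subunits differed less: Atp6v1b2 stood at 122 and 143 CPM, Atp6v0d1 at 79.7 and 88.9 CPM, and Atp6v1a at 219.8 and 243 CPM. Lamp1 (90.6 and 123 CPM) and Lamp2 (184 and 245 CPM), the main glycoproteins of the lysosomal membrane, were higher in the sponge-labelled library. Npc1, which passes cholesterol on from Npc2, was lower, at 27.6 and 19.2 CPM (−0.52, −0.85 to −0.20), but with each cell weighted equally its log2 ratio was 0.41, above 0. Mcoln1 stood at 5.88 and 5.50 CPM. Among the autophagy genes, Map1lc3a was higher (220.1 and 358 CPM, 0.70, 0.61 to 0.79), Sqstm1 stood at 173 and 221 CPM, Map1lc3b at 94.3 and 104 CPM, and Gabarapl1 at 73.6 and 72.5 CPM. The regulators Tfeb (8.34 and 7.24 CPM) and Tfe3 (15 and 13.2 CPM) had intervals that reached 0, and the ratio of Tfeb was 0.61 with each cell weighted equally.

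Other values moved with the RPE result. The 10 RPE markers summed to 48533 CPM in the GFP-labelled library and 69326 CPM in the other, with 9 of 10 higher. The 10 rod markers summed to 3840 and 2336 CPM, the 13 macrophage markers to 157 and 113 CPM, and the melanocyte markers to 1856 and 1219 CPM. Their part in the result was not tested. When clustering was made finer, one RPE sub-cluster held 485 and 447 cells, nearly balanced in number but with median UMIs of 4716 and 3008. Its leading genes include eGFP. Another sub-cluster held 501 and 29 cells, with median UMIs of 7595 and 36894. In the first of these Cd63 had a log2 ratio of 0.54, under 1.5-fold. The median there was 0.36 against −0.06 over all genes, with 22 of 29 measured members above 0 against 45.5%, and Ctsd at a log2 ratio of 1.32. After each cell was thinned to 1000 UMIs, Ctsd was detected in 39.3% of RPE cells of the GFP-labelled library (36.3 to 42.5) and 61.3% of the other (56.7 to 65.8), with 14 and 8 shallower cells left out. Without thinning the shares were 82.1% and 83%, close to each other at unequal depths.

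Within the sponge-labelled library, 146 RPE cells had an eGFP UMI and 330 had none. The cells with a UMI were far deeper, with a median of 20016 UMIs against 2498. Ctsd stood at 1458 CPM in the cells without an eGFP UMI and 2432 CPM in the cells with one, a log2 ratio of cells with over cells without of 0.74 (0.69 to 0.79). In the same order Ctsa stood at 48.4 and 69.4 CPM, Lamp2 at 212 and 281 CPM, and Atp6v1b2 at 159 and 125 CPM. Over the members the median of this ratio was 0.12, with 21 of 29 above 0, against 0.00 and 50.5% over all genes. The cells of both kinds come from 1 library, so this is a description of cells within it, and the part of depth in it was not tested.

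**Figure D2:**
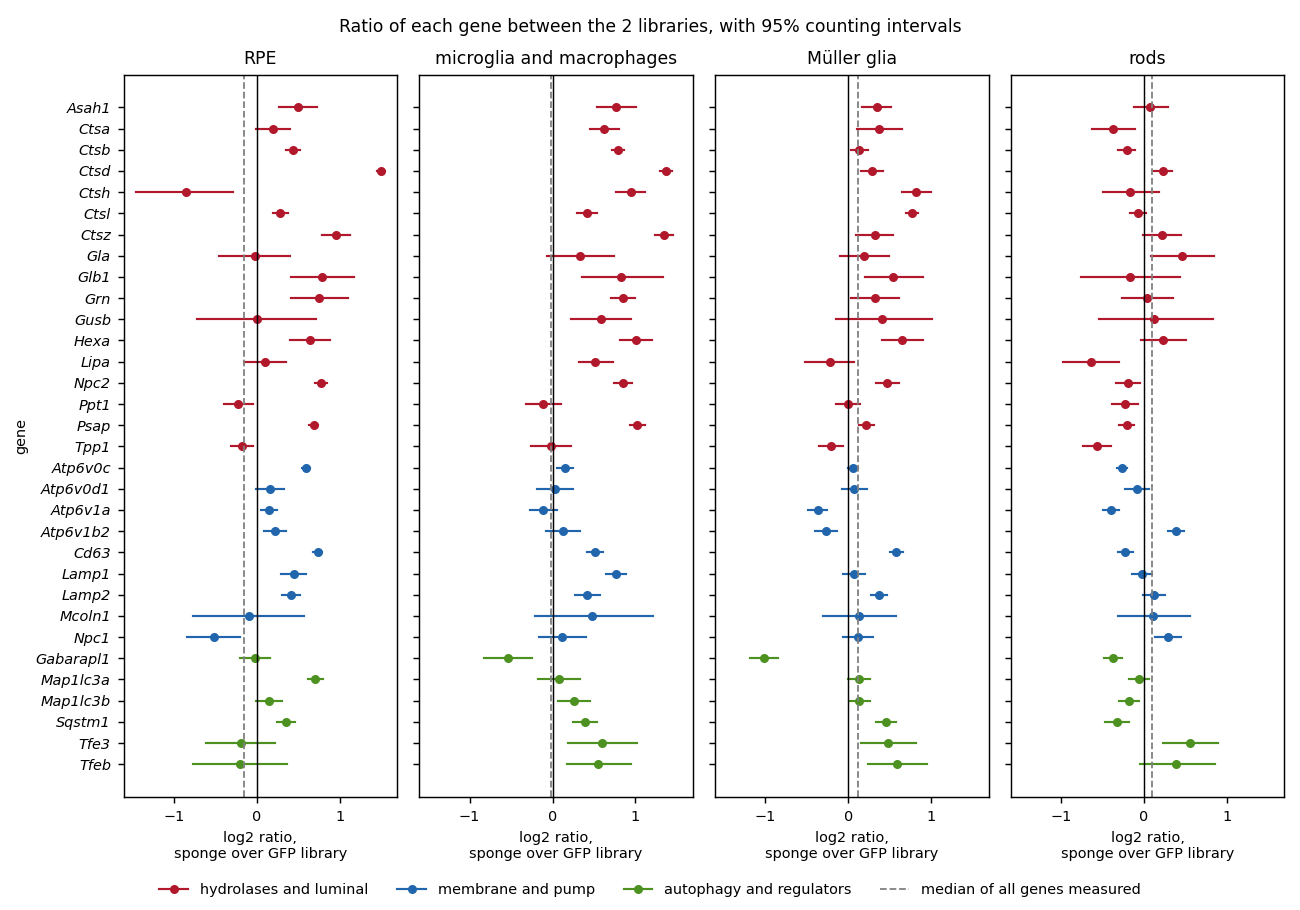
Log2 ratio of the sponge-labelled library over the GFP-labelled library for each of the 32 genes in RPE, macrophages, Müller glia and rods, with bars for 95% counting intervals. Ctsd reaches 1.5 in RPE and 1.37 in macrophages, while Gabarapl1 stands at −1.02 in Müller glia.

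Microglia and macrophages, with 817 and 638 cells, had the highest hydrolase median of the 13 classes, 0.79, with melanocytes next at 0.76. The 32 genes summed to 7028 CPM in the GFP-labelled library and 11660 CPM in the other. The median log2 ratio was 0.52 (0.26 to 0.77), against −0.02 over all genes measured. It was above 0 for 28 of 32, against 48.6% of all genes. At least 1.5-fold higher were 13 genes, against 13.0% of all, and 0 were at least 1.5-fold lower, against 17.6% of all. The median was 0.79 for the hydrolases (15 of 17 above 0, 11 at least 1.5-fold higher), 0.15 for the membrane and pump genes (8 of 9) and 0.33 for the autophagy genes (5 of 6).

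Ctsd stood at 754 CPM in the GFP-labelled library and 1953 CPM in the sponge-labelled library (log2 ratio 1.37, 1.3 to 1.45). Ctsz stood at 333 and 846 CPM (1.34, 1.24 to 1.46), and Psap at 539 and 1094 CPM (1.02, 0.93 to 1.11). Hexa, a subunit of the hexosaminidase that degrades gangliosides, stood at 119 and 239 CPM (1.0, 0.82 to 1.2). All 4 had intervals well clear of 0. Ctsh stood at 147 and 283 CPM (0.94, 0.77 to 1.12), the opposite direction to its ratio in RPE. Grn stood at 214 and 385 CPM, Npc2 at 402 and 724, Ctsb at 822 and 1422, Asah1 at 83.2 and 142, Glb1 at 19.3 and 34.5, and Ctsa at 154 and 237. Gusb (37.1 and 55.7 CPM), Lipa (115 and 164), Ctsl (333 and 443) and Gla (32.1 and 40.5) were less than 1.5-fold apart. Tpp1 (96.7 and 95.4 CPM) and Ppt1 (128 and 118) were nearly level.

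The pump did not follow the hydrolases in macrophages. The 4 V-ATPase subunits had a median log2 ratio of 0.08, with Atp6v0c at 536 and 595 CPM, Atp6v1b2 at 127 and 138, Atp6v0d1 at 117 and 119, and Atp6v1a at 214 and 199. Lamp1 stood at 313 and 532 CPM (log2 ratio 0.76), Cd63 at 511 and 731, Lamp2 at 215 and 288, Mcoln1 at 10.4 and 14.6, and Npc1 at 65 and 70.6. Both regulators were higher in the sponge-labelled library: Tfe3 stood at 28.2 and 42.7 CPM, and Tfeb at 32.9 and 48.2. Gabarapl1 was the member farthest in the other direction, at 82 and 56.5 CPM (−0.54, −0.82 to −0.25). Sqstm1 (224 and 294 CPM), Map1lc3b (137 and 164) and Map1lc3a (85.9 and 90.4) lay between.

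The make-up of the macrophage class differed between the libraries. Its 13 markers summed to 6700 and 12694 CPM, with all 13 higher in the sponge-labelled library, while the 10 rod markers summed to 8038 and 5261 CPM with 0 of 10 higher. The haemoglobin-led erythrocyte list summed to 981 and 75.0 CPM, and the T and NK cell list to 56.9 and 318 CPM. The part of these lists in the result was not tested. When the rod profile of the same library was subtracted, scaled to the rod markers, the median was 0.23, with 25 of 32 above 0, and Ctsh stood at 0.55. After thinning, the log2 ratio of Hexa was 0.44. The antibody chain genes Igkc, Igha and Jchain led the cluster: Igkc stood at 337 and 16447 CPM, although 1 of 817 and 5 of 638 cells had at least 1% of their UMIs from the 3 genes. Without those cells the median was 0.56 and the hydrolase median 0.84. In the largest sub-cluster, with 605 and 619 cells, the median was 0.39 against 0.02 over all genes, with 25 of 32 above 0 against 51.6%, Ctsd at 1.2 and Ctsz at 1.14. Thinned to 1000 UMIs, 31.8% and 53.7% of cells had a Ctsd UMI (52.5% and 75.7% unthinned), against 7.28% and 7.40% of bipolar cells.

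**Figure D3:**
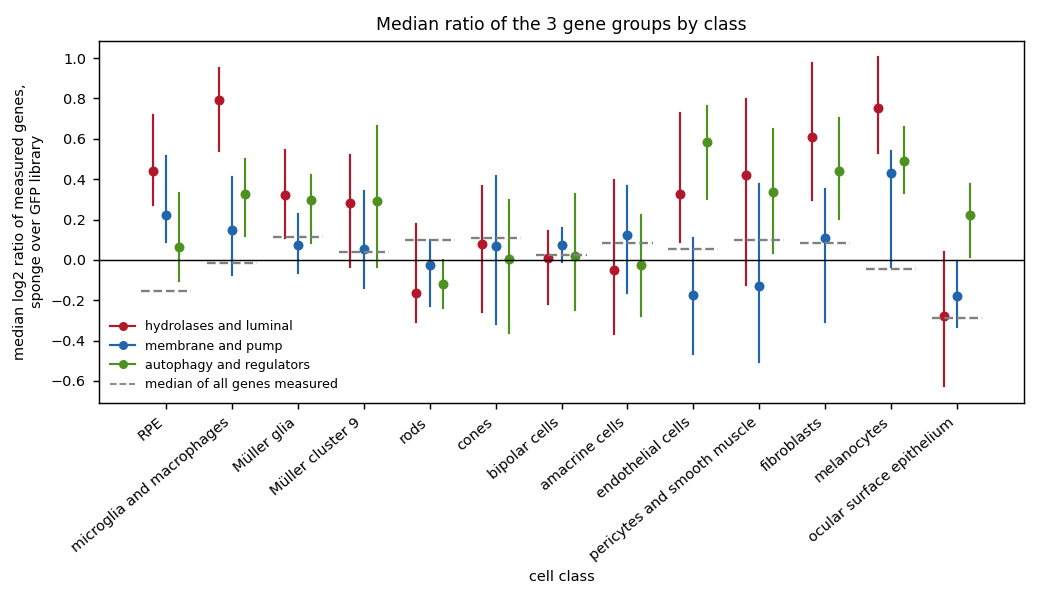
Median log2 ratio of the sponge-labelled library over the GFP-labelled library for hydrolases and luminal genes, membrane and pump genes, and autophagy genes in each class, with bars for the medians of the counting intervals and a dashed line for the median of all genes measured. In macrophages the hydrolase median is 0.79 against 0.15 for membrane and pump genes.

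Müller glia, the radial glia of the retina, fell into a main group of 3120 and 1516 cells and cluster 9, of 827 and 858 cells, whose leading genes include the astrocyte marker Gfap. In the main group the 32 genes summed to 2868 and 3423 CPM, with a median log2 ratio of 0.25 (0.03 to 0.48) against 0.11 over all genes. It was above 0 for 26 of 32, against 60.1% of all genes, at least 1.5-fold higher for 4 against 11.6%, and at least 1.5-fold lower for 1 against 13.1%. The group medians were 0.32 for hydrolases, 0.07 for membrane and pump genes and 0.30 for autophagy genes. Median-of-ratios scaling lowers each ratio here by the all-gene median of 0.11, which takes the membrane and pump median below 0. The cathepsins with the highest ratios here were Ctsh and Ctsl: Ctsh stood at 44.1 and 77.9 CPM (log2 ratio 0.82, 0.65 to 1.0), and Ctsl at 291 and 496 CPM (0.77, 0.70 to 0.84). Cd63 stood at 255 and 381 CPM (0.58, 0.51 to 0.66), Hexa at 22.4 and 35.1 CPM (0.65, 0.40 to 0.91), and Npc2 at 78.7 and 109 CPM (0.47, 0.34 to 0.61). Ctsd, the leading gene in RPE and macrophages, stood at 85.5 and 104 CPM (0.29).

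Gabarapl1, which acts late in autophagosome formation, gave the widest single difference in Müller glia. It stood at 81.9 CPM in the GFP-labelled library and 40.4 CPM in the sponge-labelled library (log2 ratio −1.02, −1.19 to −0.85). Thinned to 1000 UMIs, 8.40% and 4.25% of Müller glia had a UMI of it. With the rod profile subtracted, at 47.5% and 17.1% of the UMIs of the class, the log2 ratio was −0.57, under 1.5-fold. In the same subtraction Ctsh stood at 0.36, Ctsl at 0.499 and Hexa at 0.56, also under 1.5-fold. Atp6v1a (133 and 103 CPM, −0.37), Atp6v1b2 (93.8 and 77.9 CPM, −0.27) and Tpp1 (80.2 and 69.6 CPM, −0.21) were also lower. With the rod profile subtracted the log2 ratio of Atp6v1b2 was 0.15, above 0. Lipa stood at 20.5 and 17.5 CPM with an interval reaching 0. Different sub-clusters made up the class in the 2 libraries. One held 2412 of the 3120 cells of the GFP-labelled library and 268 of the 1516 of the other. Its median was 0.15 against 0.16 over all genes, with 16 of 31 measured members above 0 against 65.1%. A second held 420 and 1043 cells, with a median of 0.28 against 0.08 and 24 of 32 above 0 against 58.3%. Another, of 1 and 137 cells, had leading genes that include Ly6a, Igtp and H2-Ab1. The Müller markers summed to 8216 and 13110 CPM and the rod markers to 8739 and 3686 CPM. Their part in the result was not tested.

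In cluster 9 the 32 genes summed to 3897 and 4521 CPM, with a median log2 ratio of 0.24 (−0.04 to 0.47) against 0.04 over all genes. It was above 0 for 26 of 32, against 53.9% of all genes, at least 1.5-fold higher for 4 against 10.0%, and at least 1.5-fold lower for 0 against 9.55%. Sqstm1, the receptor that brings ubiquitinated cargo to autophagosomes, stood at 325 and 499.6 CPM (log2 ratio 0.62, 0.52 to 0.72). Its log2 ratio was 0.58 with median-of-ratios scaling, 0.52 with each cell weighted equally and 0.35 with the rod profile subtracted. All of these are under 1.5-fold. Lamp2 stood at 210.3 and 298 CPM, Map1lc3a at 127 and 180.2, Ctsh at 49.6 and 79, Hexa at 24.7 and 38.9, and Ctsl at 512 and 654. With the rod profile subtracted the log2 ratio of Ctsh was 0.42, under 1.5-fold. Lower were Atp6v1a (142 and 106 CPM), Gabarapl1 (74 and 55.2), Tpp1 (81.6 and 65.6), Atp6v1b2 (109 and 93.3) and Ctsb (239 and 218). With the rod profile subtracted, at 37.1% and 19.0% of the UMIs of the cluster, the log2 ratio of Gabarapl1 was 0.05, above 0. After thinning to 1000 UMIs that of Ctsb was 0.06, also above 0. The rod markers summed to 6828 and 4104 CPM in this cluster.

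Rods and bipolar cells, the neurons with the most cells, gave medians near 0. Rods, with 5310 and 5977 cells, held 2625 and 2419 CPM of the 32 genes, with a median log2 ratio of −0.08 (−0.30 to 0.08) against 0.10 over all genes. With a stricter filter on cells the rod median was 0.090, above 0, and the ratio of Lipa was −0.20. Under the main filter the log2 ratio was above 0 for 13 of 32, against 58.9% of all genes. It was at least 1.5-fold higher for 0 against 9.09%, and at least 1.5-fold lower for 1 against 12.0%. The group medians were −0.16 for hydrolases, −0.03 for membrane and pump genes and −0.12 for autophagy genes. Lipa stood at 16 and 10.3 CPM (−0.64, −0.97 to −0.30) and Tpp1 at 59.4 and 40.02 CPM (−0.57, −0.74 to −0.40). Atp6v1a (159 and 121 CPM), Gabarapl1 (124 and 96.1) and Atp6v0c (448 and 374) were lower too. In the other direction Atp6v1b2 stood at 141 and 185 CPM (0.38, 0.29 to 0.48), Tfe3 at 11.8 and 17.5, Npc1 at 55.9 and 68.4, Gla at 9.51 and 13.1, and Ctsd at 104 and 122. The subunits Atp6v1a and Atp6v1b2, partners in the catalytic head of the V-ATPase, thus stood in opposite directions in rods. The rod markers summed to 18388 and 21602 CPM, the RPE list to 1649 and 1081 CPM and the erythrocyte list to 1693 and 172 CPM. Their part in the result was not tested.

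Bipolar cells, with 4130 and 2052 cells, held 2397 and 2613 CPM of the 32 genes, with a median log2 ratio of 0.04 (−0.20 to 0.18) against 0.02 over all genes. It was above 0 for 17 of 32, against 52.1% of all genes, at least 1.5-fold higher for 1 against 6.36%, and at least 1.5-fold lower for 1 against 16.9%. Ctsz was the gene that was higher, at 32.5 and 51.3 CPM (0.66, 0.48 to 0.84), and Ctsh the one that was lower, at 9.80 and 5.01 CPM (−0.97, −1.42 to −0.52). Atp6v0c (503 and 694 CPM), Map1lc3a (99.7 and 138), Atp6v1b2 (148 and 185) and Hexa (19.7 and 26) were higher in the sponge-labelled library. Npc2 (51.4 and 36.5 CPM), Gabarapl1 (83.1 and 63.6), Ctsb (96.8 and 77.4) and Lipa (20.1 and 14.9) were lower. All 4 V-ATPase subunits had ratios above 0 in bipolar cells (median 0.24), against 1 of 4 in rods (median −0.17). The rod markers summed to 8969 and 4643 CPM in bipolar cells, and with the rod profile subtracted the median of the 32 genes was 0.25, with Gabarapl1 at 0.33 and Ctsb at 0.48, both above 0. The ratio of Ctsh was −0.54 with the stricter filter on cells.

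**Figure D4:**
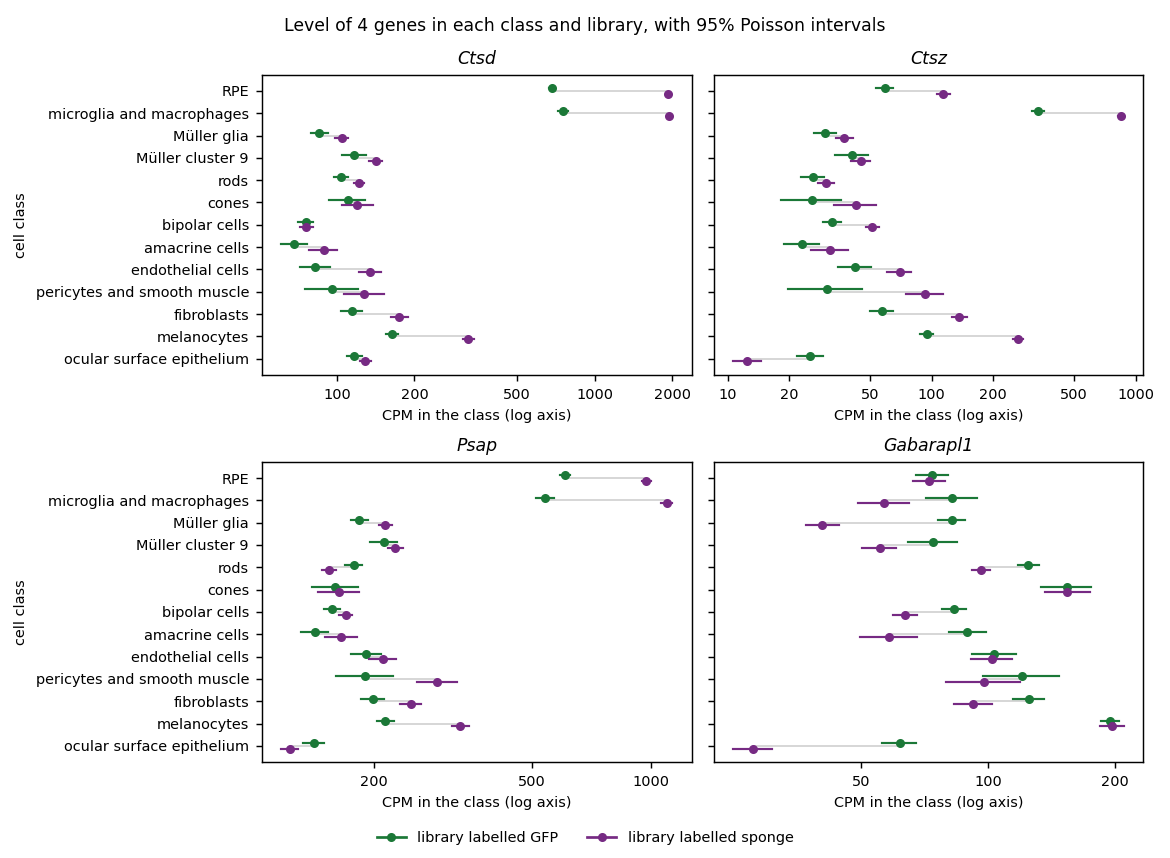
Level of Ctsd, Ctsz, Psap and Gabarapl1 in each of the 13 classes, on a log axis in CPM, with 1 point for each library and counting intervals. Ctsd lies farthest apart in RPE and macrophages, with an interval of its ratio above 0 in 10 of the 13 classes. That of Gabarapl1 lies below 0 in 8 of 13, with the lowest ratios in ocular surface epithelium and Müller glia. All 13 classes come from the same 2 libraries.

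The remaining classes varied in the same 2 libraries. In melanocytes (2087 and 432 cells) the median was 0.57 (0.33 to 0.73), with 28 of 32 above 0 against 46.4% of all genes, 16 at least 1.5-fold higher against 11.3%, and 0 lower against 15.6%. Ctsz stood there at 94.6 and 265 CPM (1.49), Cd63 at 1083 and 2172, Hexa at 41.9 and 99.6, and Ctsl at 365 and 746. In fibroblasts (1841 and 567 cells) the median was 0.47 (0.23 to 0.73), with 25 of 32 above 0 against 55.8%, 12 at least 1.5-fold higher against 17.9%, and 0 lower against 15.9%. Ctsz stood at 57 and 137 CPM (1.26), Ctsh at 50.6 and 116, and Map1lc3a at 184 and 363. Of the V-ATPase subunits, 3 of 4 were lower in fibroblasts (median −0.33), and Atp6v0d1 stood at 67.7 and 73.1 CPM.

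In endothelial cells (866 and 345 cells) the median was 0.28 (−0.02 to 0.65), with 20 of 32 above 0 against 54.3% of all genes, 10 at least 1.5-fold higher against 16.2%, and 0 lower against 14.1%. Glb1 stood at 12.8 and 30.1 CPM, Ctsh at 68.1 and 126, and the V-ATPase median was −0.36 with 0 of 4 above 0. In pericytes and smooth muscle (355 and 204 cells) 24 members were measured, with a median of 0.34, 16 above 0 against 57.6%, 8 at least 1.5-fold higher against 18.6% and 1 lower against 11.6%. Ctsz stood there at 30.7 and 92.7 CPM (1.57).

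In ocular surface epithelium (1036 and 418 cells) the median was −0.20 (−0.43 to 0.06) against −0.29 over all genes, with 11 of 32 above 0 against 35.0%, 2 at least 1.5-fold higher against 11.0% and 7 lower against 35.3%. Ctsl stood at 615 and 1184 CPM (0.95), while Cd63 stood at 186 and 85.7 CPM (−1.12), Ctsz at 25.4 and 12.5, Gabarapl1 at 61.6 and 27.6, and Tpp1 at 50.8 and 24.7. Among the remaining neurons, cones (705 and 414 cells) measured 25 members with a median of 0.03, 15 above 0 against 60.8%, 4 at least 1.5-fold higher against 10.9% and 0 lower against 8.54%. Amacrine cells (1407 and 439 cells) measured 31 with a median of −0.02, 15 above 0 against 58.9%, 1 higher against 9.83% and 1 lower against 8.23%.

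Ranges over the 13 classes, which all come from the same 2 libraries, were one-sided for Ctsd and Tpp1. The log2 ratio of Ctsd ran from 0.01 in bipolar cells to 1.5 in RPE. Tpp1 ran from −1.04 in ocular surface epithelium to −0.02 in macrophages. Gabarapl1 ran from −1.16 in ocular surface epithelium to 0.02 in melanocytes, and was above 0 in 2 of the 13 classes, melanocytes and cones, where its intervals reach 0. With the rod profile subtracted, Gabarapl1 stood above 0 in bipolar cells (0.33) and cluster 9 (0.05) as well. The values nearest 0, of Ctsd in bipolar cells and of Tpp1 in macrophages, have intervals that reach 0. Other cathepsins lay on both sides: Ctsz ran from −1.03 in ocular surface epithelium to 1.57 in pericytes and smooth muscle, and Ctsh from −0.97 in bipolar cells to 1.19 in fibroblasts over the 11 classes in which it was measured. Differences between classes were not tested.

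**Figure D5:**
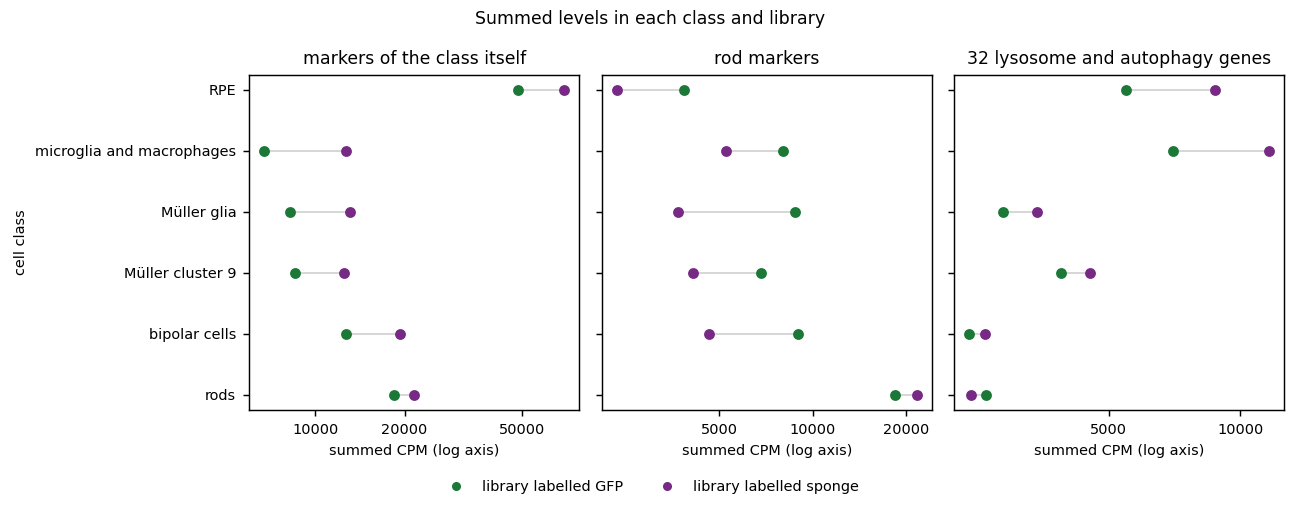
Summed level, on a log axis in CPM, of each class's own markers, the rod markers and the 32 genes in 6 classes, with 1 point for each library. Rod markers are lower in the sponge-labelled library in every class shown except rods, while the 32 genes are higher there in RPE, macrophages, both Müller groups and bipolar cells.

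The ratios were also set against the sequences shown above. In RPE the median log2 ratio was 0.25 for the 6 with a seed match and 0.25 for the 26 without. In macrophages it was 0.19 and 0.53, in Müller glia 0.11 and 0.30, in cluster 9 0.03 and 0.27, in rods −0.28 and 0.01, and in bipolar cells −0.08 and 0.04. Of the 6, the number above 0 was 4 in RPE, 3 in macrophages, 3 in Müller glia, 4 in cluster 9, 3 in bipolar cells and 0 in rods. For the promoter motif, the RPE median was 0.20 for the 9 genes with CACGTG and 0.35 for the 17 without, in macrophages 0.47 and 0.52, and in Müller glia 0.19 and 0.32. The order was the other way in cluster 9 (0.28 and 0.21), rods (−0.07 and −0.20) and bipolar cells (0.15 and −0.09).

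Beyond the 32, a list of 93 other lysosome and autophagy genes was examined in the same way. This list too was chosen with earlier results of these data known, so it is not independent of them. In RPE 58 of 86 measured (67.4%) were above 0, against 39.6% of all genes, with a median of 0.20. At least 1.5-fold higher were 12 (14.0% against 9.77%), and 2 were lower (2.33% against 25.9%). Naglu, a heparan sulphate glycosidase, stood at 5.88 and 15.6 CPM, Smpd1, the acid sphingomyelinase, at 61.7 and 112 CPM, and Laptm4a, a lysosomal membrane protein, at 416 and 668 CPM. Atg16l1, which directs LC3 lipidation, stood at 37.7 and 20.7 CPM, the pump subunit Atp6v0a1 at 178 and 139 CPM, and Mitf, a relative of Tfeb, at 338 and 268 CPM. With each cell weighted equally the log2 ratios of Laptm4a and Atg16l1 were 0.46 and −0.34, under 1.5-fold. In macrophages 64 of 90 (71.1%) were above 0, against 48.6% of all genes, with a median of 0.23. At least 1.5-fold higher were 23 (25.6% against 13.0%), and 5 were lower (5.56% against 17.6%). The cathepsin Ctss stood at 1289 and 2507 CPM, and Ctsc, a dipeptidyl peptidase, at 249 and 491 CPM. The mitophagy receptor Bnip3 (58.8 and 28.1 CPM) and the autophagy genes Wipi1 (45.7 and 27.0 CPM) and Atg12 (57.6 and 36.1 CPM) were lower in the sponge-labelled library. With each cell weighted equally the log2 ratios of Ctsc and Atg12 were 0.39 and −0.54, under 1.5-fold. With the rod profile subtracted that of Ctss was 0.54, also under 1.5-fold.

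In Müller glia 61 of 89 of these genes (68.5%) were above 0, against 60.1% of all genes, with a median of 0.14 against 0.11. At least 1.5-fold higher were 12 (13.5% against 11.6%), and 0 were lower against 13.1%. The endolysosomal channel Tpcn1 stood at 36.8 and 67.7 CPM, Tmem192 at 29.2 and 50.9 CPM and Wipi1 at 153 and 243 CPM. The log2 ratio of Tpcn1 was 0.43 with the rod profile subtracted, and that of Tmem192 was 0.45 with cells named by their highest marker score, both under 1.5-fold. Ids, a sulphatase, stood at 36.9 and 24.7 CPM, Atp6v0a1 at 96.8 and 70.6 CPM and Bnip3 at 55.9 and 40.5 CPM. In cluster 9, 48 of 87 (55.2%) were above 0, close to the 53.9% of all genes, with a median of 0.06 against 0.04. At least 1.5-fold higher were 9 (10.3% against 10.0%), and 2 were lower (2.30% against 9.55%). Ctsc (53.6 and 103 CPM), Ctsf (43.0 and 70.3 CPM) and Gaa, the acid glucosidase (31.3 and 52.8 CPM), were higher, while Ctss (21.0 and 8.70 CPM), Atp6v1e1 (178 and 119 CPM) and Acp2 (31.7 and 21.6 CPM) were lower. Wipi1 was thus lower in macrophages and higher in Müller glia, at 0.19 in Müller glia with the rod profile subtracted and −0.24 in macrophages with cells weighted equally, both under 1.5-fold.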

How the data were processed

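The deposited values are UMI counts per gene and cell barcode, made by the authors with Cell Ranger 7.0.0 on mm10, per the submitters' processing notes. Strand and intron settings are not given in the sources used here, and 13 members overlap a gene on the other strand. Barcodes below 300 genes or 500 UMIs, or above 25% mitochondrial UMIs, were removed. Counts were clustered with scanpy 1.11.5 and Leiden (leidenalg 0.10.2; 2000 variable genes, 30 components, 15 neighbours, resolution 1, 30 clusters) without the 32 members and 93 other pathway genes. Clusters were named from marker genes by a rule set after the clusters were seen. Scrublet marked 0 cells and was taken not to have worked, so no doublets were removed. UMIs of all cells in a class were added up within each library and expressed as CPM. Ratios have exact binomial intervals and levels exact Poisson intervals (95%), for counting error only. The ratio and its interval were tested on simulated Poisson counts with known changes, which hold no variation between cells or eyes. Clustering, naming, thinning and the rod subtraction were not simulated. Genes described in full were, in each main class, the 5 highest and 5 lowest members ranked by the interval bound nearest 0. The members and lists were chosen with earlier results of these data known. The 11 alternatives and 4 added later are in the closing section. Sequences come from RefSeq (GRCm38.p6) and GENCODE M21. One other pathway gene that the naming rule selected is not reported here.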

Additional observations from a re-analysis of the deposited data

Results flagged for a closer look

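One result was set aside for a closer look because it is a signal in data outside the comparisons above. The eGFP transcript had 5484 UMIs in 702 kept cells of the sponge-labelled library (41.6 CPM), against 12 UMIs in 10 kept cells of the GFP-labelled library (0.0978 CPM). Most of it lay in RPE, with 4727 UMIs in 146 of 476 cells of the sponge-labelled library and 9 UMIs in 7 of 995 cells of the other. Rods of the sponge-labelled library held 141 eGFP UMIs in 121 of 5977 cells, and macrophages 12 UMIs in 10 of 638.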

How the results depend on the processing

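Medians of the 32 genes were recomputed under 11 other settings and 4 more that were chosen after seeing the data. They ranged from 0.23 to 0.41 in RPE, 0.23 to 0.77 in macrophages, 0.14 to 0.37 in Müller glia, 0.11 to 0.25 in cluster 9, −0.18 to 0.09 in rods and −0.04 to 0.25 in bipolar cells. Of these, 3 moved beyond their counting interval: with the rod profile subtracted the median was 0.23 in macrophages and 0.25 in bipolar cells, and with the stricter filter on cells it was 0.090 in rods, above 0 rather than below. The cause was not tested. Median-of-ratios scaling gave 0.40 in RPE, 0.53 in macrophages and 0.14 in Müller glia. It sets the all-gene medians of −0.15 in RPE and 0.11 in Müller glia to 0, which raises the RPE ratios and lowers the Müller ratios. Of 950 values of single genes, 741 stayed within their interval and 927 kept their sign. They cover 84 gene and class pairs picked among the highest and lowest by the interval bound nearest 0. That choice favours ratios away from 0. All 84 stayed with 1 added to each count and without shared barcodes. With the rod profile subtracted 38 moved and 36 stayed, and with thinning to 1000 UMIs 37 moved and 47 stayed. The renamed clusterings gave no separate value for cluster 9, since all Müller clusters were pooled there. No paired analysis was possible because each treatment has 1 library, and no library could be left out. Depth limits genes with few counts, such as Gusb and Mcoln1 in RPE.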
